A study of Homo sapiens with 16 samples.

Results

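The baseline expression of 2 established human cancer cell lines with a functional STAG2 gene was compared, the brain tumour line H4 after repair of its mutated STAG2 against the colorectal carcinoma line HCT116, whose STAG2 is intact. The arrays were taken by their titles and were 5 of the 16 in the series. In H4 they were 3 post-Cre knock-in clones with corrected STAG2, named 8-1, 8-3 and 88-1, and in HCT116 they were 2 clones, 24 and 27, that had not recombined and stayed wild-type. The series set STAG2-deficient against proficient cells in H4, 42MGBA and HCT116. Total RNA came from untreated, growing cultures below confluence in the same medium, DMEM with serum, with 1 Affymetrix Human Gene 1.0 ST array per culture. The STAG2-deficient arrays of the same lines, which were the H4 parental culture with clones 10 and 12 and the HCT116 knockout clones 7 and 21, served as a separate set for the same line difference.

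Each line stands for 1 tumour, and each of the 5 arrays is a clone of 1 of them. The H4 clones 8-1 and 8-3 share a starting clone by their numbers. The p-values measure the spread between cultures of these lines, pooled over 10 arrays in 4 groups with the STAG2-deficient ones included, and not the spread between tumours of either kind. Where nothing says that cultures were grown apart, that spread may be technical. No label gives a hybridisation batch, so a batch that followed the lines cannot be told apart from the line difference. Values are log2 expression from RMA, so a difference of 1 is 2-fold, and differences are H4 minus HCT116 throughout. A gene was called different at an adjusted p under 0.05 (limma, Benjamini-Hochberg over 18417 genes) together with at least a 2-fold difference. The number of arrays, 3 against 2, limits the precision.

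Epithelial cells hold to each other through E-cadherin junctions, desmosomes and tight junctions, and fill their cytoplasm with keratin filaments. Mesenchymal cells use vimentin filaments and N-cadherin, and lay down a fibrous matrix of collagens and fibronectin. The transcription factors of the SNAI, ZEB and TWIST families are known to repress E-cadherin and other epithelial genes, and the miR-200 family is known to repress ZEB1 and ZEB2.

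STAG2, which encodes a subunit of the cohesin ring, had levels of 8.94, 8.91 and 8.87 in the H4 clones, against 9.28 and 9.30 in the HCT116 clones. The difference of -0.38 (95% interval -0.75 to -0.01) did not pass the test (limma, adjusted p = 0.0994). In the deficient arrays the levels were 6.57, 6.96 and 6.62 in H4 and 6.57 and 7.14 in HCT116, so each of the 5 proficient arrays lay above every deficient one, as its label says. STAG1, which encodes the alternative subunit, was at 8.74 ± 0.12 (SD, n = 3) in H4 and 8.60 ± 0.09 (SD, n = 2) in HCT116. None of the 12 measured cohesin genes was called, against 12.3% of all genes, and their median difference was -0.01.

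Clones of a line were far closer to each other than the lines were. Over all rows the arrays correlated at 0.9925 to 0.9939 among the H4 clones and at 0.9938 between the HCT116 clones, against 0.9429 to 0.9503 between the lines. The median SD of a gene was 0.11 in H4 (n = 3) and 0.08 in HCT116 (n = 2). Array medians of 6.26 to 6.30 put the 5 arrays on the same scale. The 42MGBA arrays, with medians of at most 5.05, lie on another scale and were left out. Of 9 measured markers of blood, endothelial and liver cells, none was called, their mean levels were 3.34 to 5.35 in H4 and 3.23 to 5.46 in HCT116, and their median difference was -0.01.

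Of the 18417 genes, 2263 (12.3%) were called. They were 1353 genes higher in H4 (7.35%) and 910 lower in H4 (4.94%), and in each of them the H4 arrays did not overlap the HCT116 arrays. Over all genes, 62.9% had arrays that did not overlap, 38.7% passed the adjusted p alone, and the median difference was -0.06. At least 4-fold were 526 of the genes called higher and 208 of those called lower. At least 16-fold were 124 and 48, so the upper end of the H4 side was the fuller one.

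**Figure D1:**
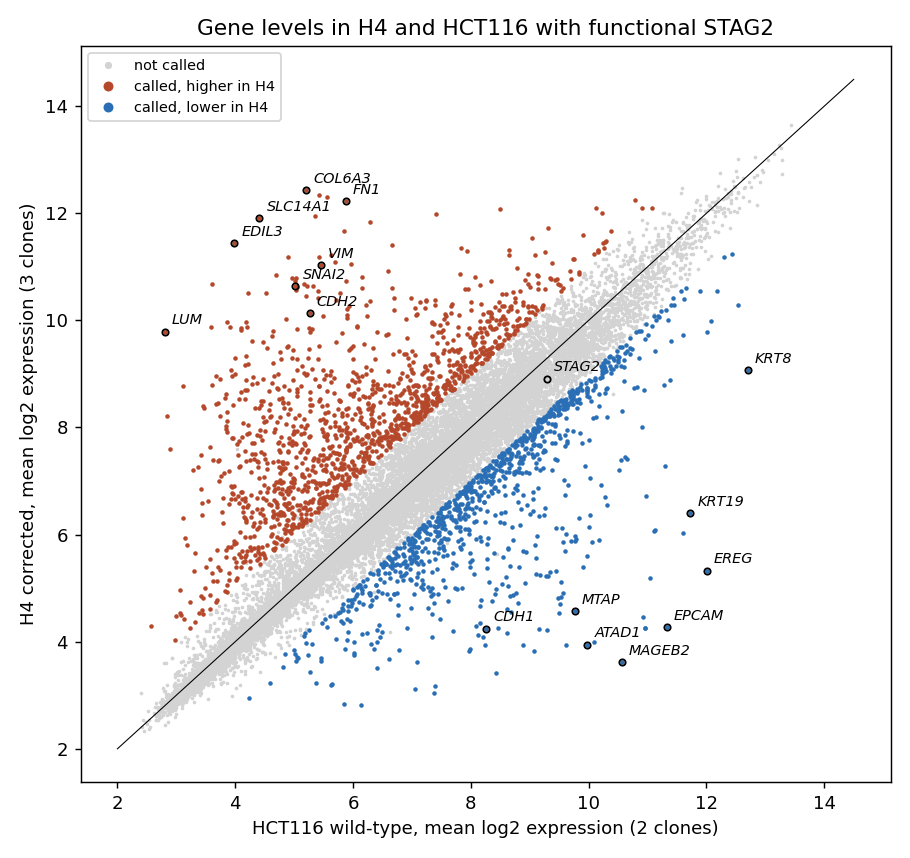
Mean log2 expression of 18417 genes in 3 H4 corrected clones (vertical axis) against 2 HCT116 wild-type clones (horizontal axis), with called genes in colour and the line of equal levels in black. Matrix genes such as COL6A3 and FN1 stand far above the line and epithelial genes such as EPCAM and KRT19 far below it, while STAG2 lies near it.

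Adhesion genes of epithelia were low in H4. The surface adhesion protein gene EPCAM had levels of 4.29, 4.41 and 4.13 in the H4 clones, against 11.15 and 11.50 in the HCT116 clones. Every H4 value was below 4.52, the lowest lower quartile of the 5 arrays, and the difference of -7.05 (SE 0.14), or 132-fold lower in H4, was the most negative of all called genes (limma, adjusted p = 3.65e-10). CDH1, the gene for E-cadherin, had levels of 4.38, 4.14 and 4.22 in H4, against 8.07 and 8.43 in HCT116. It was 16.1-fold lower in H4, with no overlap (-4.01, SE 0.15, limma adjusted p = 1.84e-08). Such RNA levels come from whole cultures, in which fewer cells of a type and less RNA per cell cannot be told apart.

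The mesenchymal pair mirrored them. VIM, the gene for vimentin, had levels of 11.14, 11.06 and 10.90 in H4, against 5.23 and 5.67 in HCT116, and was 48.0-fold higher in H4 (5.59, SE 0.14, limma adjusted p = 1.67e-09). CDH2, the gene for N-cadherin, had levels of 10.32, 9.89 and 10.18 in H4, against 5.08 and 5.44 in HCT116. The CDH2 difference was 4.87 (SE 0.18, limma adjusted p = 1.85e-08), or 29.2-fold higher in H4. In all 4 markers the gap between the lines was more than 10 times the larger SD within a line.

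**Figure D2:**
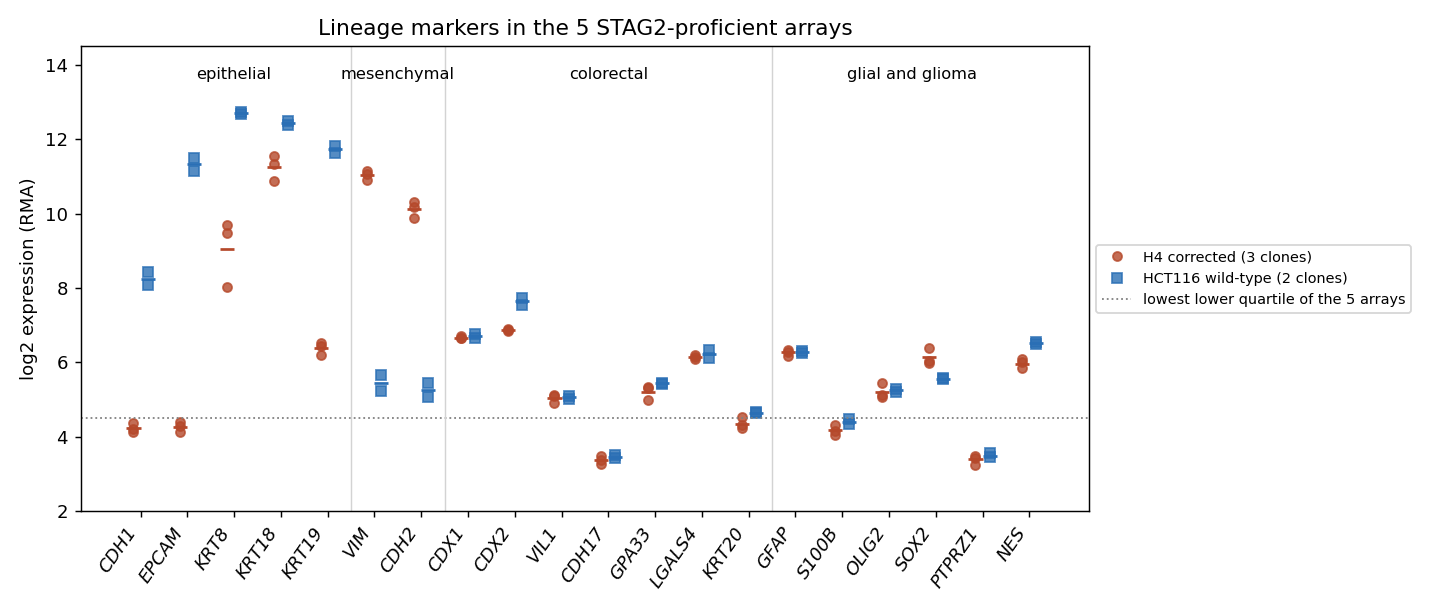
Log2 expression (vertical axis) of 20 lineage markers in the 3 H4 corrected clones (circles) and the 2 HCT116 wild-type clones (squares), with group means as bars and the lowest lower quartile of the 5 arrays, 4.52, as a dotted line. The lines separate widely in epithelial and mesenchymal markers, while most colorectal markers and most glial markers lie at nearly the same level in both.

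Of the 34 epithelial junction genes listed, 29 had a row of their own. None was called higher in H4 and 16 were called lower, with a median difference of -1.30, against 4.94% of all genes called lower and a median of -0.06. By role the lower calls were 2 of 4 adherens junction genes, 5 of 11 tight junction genes, 6 of 8 desmosome genes, 2 of 5 polarity genes and EPCAM. CDH3, the gene for P-cadherin, was 25.3-fold lower in H4, at 4.91 ± 0.09 (SD, n = 3) against 9.57 ± 0.11 (SD, n = 2).

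Among desmosome genes, DSP encodes desmoplakin, which ties the desmosome to keratin filaments. It had levels of 4.65, 4.65 and 4.30 in H4, against 9.45 and 9.53 in HCT116, and was 31.1-fold lower in H4 (limma, adjusted p = 1.67e-09). DSC2, which encodes a desmosomal cadherin, was 16.6-fold lower, at 5.30 ± 0.22 (SD, n = 3) in H4 and 9.35 ± 0.18 (SD, n = 2) in HCT116. The plaque protein genes JUP, PKP2, PKP3 and PPL were called lower too, with differences of -1.16 (PKP2) to -2.27 (JUP). The desmosome was the junction with the largest share of its genes called.

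Tight junction genes were split. CLDN7, the gene for claudin 7, had levels of 5.72, 5.46 and 5.60 in H4, against 9.90 and 10.04 in HCT116, 20.8-fold lower in H4 (limma, adjusted p = 1.54e-09). MARVELD2, the gene for tricellulin, which seals the points where cells meet, was 18.3-fold lower in H4, and CLDN4 was 7.06-fold lower. CLDN1, in contrast, differed by 0.05 (95% interval -0.21 to 0.32), with a mean of 4.48 in H4 and 4.43 in HCT116, both under the lower quartile. CRB3, a polarity gene, was below 2-fold (-0.55, limma adjusted p = 0.00179).

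The hexamer CAGGTG, an E-box known to be bound by SNAI and ZEB repressors, was searched on both strands in RefSeq promoter windows of 300 bases on GRCh38.p14. It was held by 7231 of all 35116 windows (20.6%), and 24.1% of the 27305 genes with a window held it in at least 1. Of the 33 junction, keratin and regulator genes called lower in H4, 15 had a window and 9 of these held it (60.0%). CDH1 and EPCAM had no window and lie outside that share. Of the 48 mesenchymal and matrix genes called higher in H4, 33 had a window and 2 held it (6.06%). These shares describe letters in the windows and say nothing of binding in these cells.

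Windows of 3 genes called lower in H4 and of CDH2, called higher, are shown 5′ to 3′ on the gene's strand, with each E-box in capitals (CAGGTG, or CACCTG where it lies on the other strand). They were picked as examples. Epithelial genes without the E-box and mesenchymal or matrix genes that hold it are not shown. CLDN7 (chr17:7262429-7262728, minus strand) holds 5, RAB25 (chr1:156060910-156061209, plus strand) holds 2, DSP (chr6:7541421-7541720, plus strand) holds 2 and CDH2 (chr18:28177081-28177380, minus strand) holds 0.
CLDN7: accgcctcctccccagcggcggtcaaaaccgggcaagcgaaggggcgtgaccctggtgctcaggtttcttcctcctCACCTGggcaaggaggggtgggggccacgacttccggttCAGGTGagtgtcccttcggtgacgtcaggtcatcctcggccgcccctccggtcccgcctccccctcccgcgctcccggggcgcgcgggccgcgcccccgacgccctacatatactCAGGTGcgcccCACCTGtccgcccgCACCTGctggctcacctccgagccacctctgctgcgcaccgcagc
RAB25: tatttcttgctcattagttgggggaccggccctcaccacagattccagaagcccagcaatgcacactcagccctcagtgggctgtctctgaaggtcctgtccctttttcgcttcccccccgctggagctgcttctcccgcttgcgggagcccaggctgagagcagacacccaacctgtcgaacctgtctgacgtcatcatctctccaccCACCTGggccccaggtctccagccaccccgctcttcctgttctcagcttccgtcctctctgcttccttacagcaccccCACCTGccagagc
DSP: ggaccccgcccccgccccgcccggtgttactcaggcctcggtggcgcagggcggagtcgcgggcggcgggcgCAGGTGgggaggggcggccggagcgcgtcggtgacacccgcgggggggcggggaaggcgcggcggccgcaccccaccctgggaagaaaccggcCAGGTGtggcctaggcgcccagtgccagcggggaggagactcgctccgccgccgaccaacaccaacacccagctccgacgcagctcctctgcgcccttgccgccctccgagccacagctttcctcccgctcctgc
CDH2: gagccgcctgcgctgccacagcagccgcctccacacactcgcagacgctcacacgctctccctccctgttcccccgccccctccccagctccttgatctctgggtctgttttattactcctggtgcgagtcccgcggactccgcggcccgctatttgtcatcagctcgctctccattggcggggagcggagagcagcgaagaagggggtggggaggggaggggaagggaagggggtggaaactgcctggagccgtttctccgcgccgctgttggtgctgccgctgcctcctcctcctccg

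Keratins and regulators of the epithelial state were lower in H4 in 17 of 23 measured members, against 4.94% of all genes. None was higher, and the median difference was -1.79. KRT19, a keratin of simple epithelia, had levels of 6.52, 6.21 and 6.45 in H4, against 11.63 and 11.81 in HCT116, and was 40.2-fold lower in H4 (limma, adjusted p = 1.27e-09). KRT8 had levels of 9.68, 9.49 and 8.02 in H4, against 12.73 and 12.67 in HCT116. Clone 88-1 was the lowest in KRT8, and the 12.4-fold difference had a wide interval on the log2 scale, -4.77 to -2.51. KRT18, the partner of KRT8, was at 11.25 ± 0.33 (SD, n = 3) in H4 and 12.43 ± 0.07 (SD, n = 2) in HCT116, 2.28-fold lower. KRT8 and KRT18 have many processed copies in the genome, and probes may read these too, so their sizes are uncertain.

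Of 7 measured transcription factors of the epithelial state 5 were called lower in H4, and KLF5 (-0.92) and OVOL2 (-0.41) were not called. EHF, an ETS factor of epithelia, had levels of 3.78, 3.84 and 3.86 in H4, against 8.53 and 9.63 in HCT116, 38.2-fold lower in H4. GRHL2, which is known to activate junction genes, was 6.65-fold lower, at 4.99 ± 0.19 (SD, n = 3) in H4 and 7.73 ± 0.27 (SD, n = 2) in HCT116. GRHL1 was 2.78-fold lower, and ESRP2, a splicing factor gene that directs epithelial splice forms, was 3.75-fold lower in H4. In these 4 genes the arrays of the lines did not overlap, as in every called gene and in 62.9% of all genes.

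Genes of surface proteolysis and apical transport showed the same direction in all 8 measured members. MAL2, which carries membrane proteins to the apical surface, had levels of 4.09, 4.36 and 4.29 in H4, against 11.12 and 10.80 in HCT116, 105-fold lower in H4 (limma, adjusted p = 8.61e-09). RAB25, a small GTPase of apical recycling, was 30.6-fold lower, at 4.23 ± 0.10 (SD, n = 3) in H4 and 9.16 ± 0.03 (SD, n = 2) in HCT116. The membrane protease gene ST14 was 16.5-fold lower, and SPINT2, which encodes an inhibitor of such proteases, was 15.1-fold lower in H4.

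Genes of intestinal identity did not follow. Of 39 measured members of 46 listed, none was called higher in H4 and 1 was called lower. Their median difference was -0.09, and the arrays overlapped in 23. Over all genes 7.35% were called higher and 4.94% lower, so 1 lower call was near the general share. Arrays did not overlap in 62.9% of all genes. The member called lower was CA2, the gene for carbonic anhydrase 2, 9.51-fold lower. It was at 5.41 ± 0.11 (SD, n = 3) in H4 and 8.66 ± 0.12 (SD, n = 2) in HCT116. CDX2, the master factor of intestinal fate, had levels of 6.90, 6.87 and 6.84 in H4, against 7.72 and 7.55 in HCT116. Its arrays did not overlap, but the difference of -0.76 (SE 0.10, limma adjusted p = 0.000136) was below 2-fold. CDX1 differed by -0.05 (95% interval -0.30 to 0.20).

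Markers of colon epithelium were at similar levels in both lines, none of them called. CDH17, the intestinal cadherin gene, had levels of 3.49, 3.27 and 3.39 in H4, against 3.51 and 3.43 in HCT116. VIL1, the villin gene of the brush border, was at 5.05 ± 0.12 (SD, n = 3) in H4 and 5.06 ± 0.06 (SD, n = 2) in HCT116. KRT20, GPA33 and LGALS4 differed by -0.29, -0.23 and -0.07, and LGR5, a stem cell marker, by 0.01. In these 6 genes the lines differed by less than 2-fold. The means of CDH17 and LGR5 lay under the lower quartile in both lines, and that of KRT20 did so in H4. Similar levels near the floor do not show that a gene was expressed. Of the 39 members, 5 passed the adjusted p, CDX2 and CA2 among them.

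**Figure D3:**
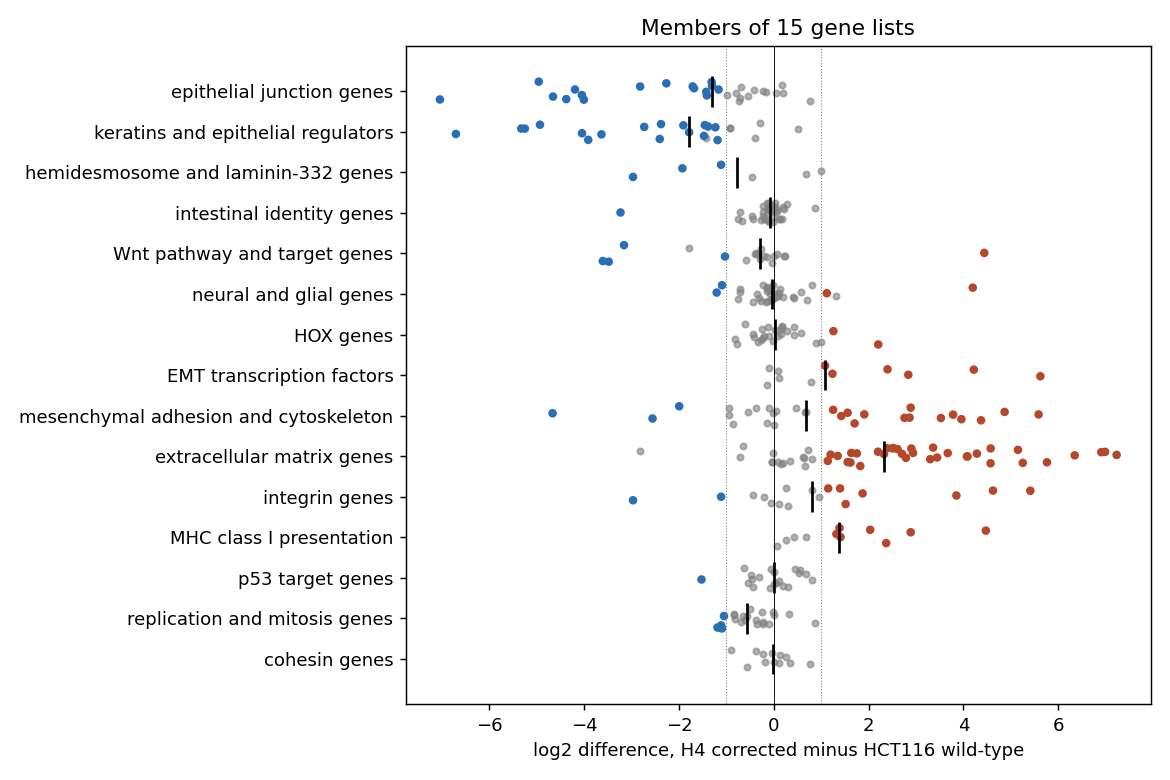
Log2 difference, H4 corrected minus HCT116 wild-type (horizontal axis), of each measured member of 15 gene lists, with called genes in colour, list medians as black bars and the 2-fold limits dotted. The epithelial lists lie to the left with medians of -1.30 and -1.79, the matrix list to the right with a median of 2.32, and the intestinal, neural and HOX lists around 0.

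Transcription factors of the epithelial-mesenchymal transition were higher in H4 in 6 of 11 measured members, against 7.35% of all genes. None was lower, and the median difference was 1.08. SNAI2, the gene for Slug, had levels of 10.43, 10.85 and 10.65 in H4, against 5.07 and 4.97 in HCT116, 49.3-fold higher in H4 (limma, adjusted p = 2.41e-08). TCF4, an E-box factor, was 18.6-fold higher, at 8.84 ± 0.08 (SD, n = 3) in H4 and 4.62 ± 0.07 (SD, n = 2) in HCT116. These were the largest differences of the list.

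ZEB2 had levels of 7.48, 7.51 and 7.74 in H4, against 4.71 and 4.77 in HCT116, 7.15-fold higher in H4. ZEB1 was 5.27-fold higher, at 8.10 ± 0.11 (SD, n = 3) in H4 and 5.70 ± 0.33 (SD, n = 2) in HCT116. SNAI1 was below 2-fold (0.78, SE 0.16), and PRRX1 differed by -0.15. TWIST1 and TWIST2 were called at 1.24 and 1.08, close to the 2-fold limit. Without the HCT116 clone 27 TWIST1 differed by 0.98, and without the HCT116 clone 24 TWIST2 did so by 0.98, which ended both calls. Without the H4 clone 8-3 TWIST2 stood at the limit and lost its call as well.

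The 5 miR-200 genes, of which none was called, had a median difference of -0.26. MIR200C had levels of 5.12, 4.88 and 5.17 in H4, against 6.06 and 5.92 in HCT116, a difference of -0.94 (limma, adjusted p = 0.000546) that was just below 2-fold. MIR141, its neighbour on chromosome 12, differed by -0.79 (SE 0.14), with no overlap between the lines, as in 62.9% of all genes. MIR200B, MIR200A and MIR429, which lie together on chromosome 1, differed by -0.03, -0.19 and -0.26 and missed the test. Whether a row of this array reads the precursor or the mature miRNA was not tested.

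The mature miRNAs of the family fall into 2 groups by their seed (bases 2 to 8, in capitals), as the RefSeq sequences on GRCh38.p14 show. Seed AACACUG is shared by MIR141 of chromosome 12 and MIR200A of chromosome 1, and seed AAUACUG by MIR200C of chromosome 12 and by MIR200B and MIR429 of chromosome 1.
hsa-miR-141-3p: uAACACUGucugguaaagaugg
hsa-miR-200a-3p: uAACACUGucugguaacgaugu
hsa-miR-200c-3p: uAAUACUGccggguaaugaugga
hsa-miR-200b-3p: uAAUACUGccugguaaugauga
hsa-miR-429: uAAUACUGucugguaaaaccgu

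Among the other miRNA genes of that list, which held 22 measured genes in all, MIR221 was the only one called. A single lower call is near the 4.94% of all genes called lower. MIR221 had levels of 6.46, 6.51 and 6.45 in H4, against 7.65 and 7.77 in HCT116, 2.36-fold lower in H4 (limma, adjusted p = 0.000463). MIR21 was at 8.68 ± 0.09 (SD, n = 3) in H4 and 7.96 ± 0.18 (SD, n = 2) in HCT116, and MIR31 differed by -0.58. The median of the 22 genes was -0.19.

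Mesenchymal adhesion and cytoskeleton genes were called higher in H4 in 14 and lower in 3 of 30 measured members, with a median difference of 0.67, against 7.35% of all genes called higher. Of the adhesion genes, CDH11, the gene for a cadherin of mesenchymal cells, was 13.8-fold higher, at 9.09 ± 0.36 (SD, n = 3) in H4 and 5.31 ± 0.12 (SD, n = 2) in HCT116. THY1, a surface protein gene of fibroblasts and neurons, had levels of 9.98, 9.58 and 9.75 in H4, against 5.90 and 5.73 in HCT116, 15.5-fold higher in H4. GNG11, a G-protein subunit gene, was 20.7-fold higher and FSTL1, which encodes a secreted glycoprotein, 11.5-fold higher.

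The list also had members that went the other way. NT5E, which encodes the surface enzyme CD73, had levels of 5.22, 5.12 and 4.12 in H4, against 9.13 and 9.85 in HCT116, 25.4-fold lower in H4 (limma, adjusted p = 0.000403). TPM2, a tropomyosin gene, was 5.89-fold lower, at 7.03 ± 0.06 (SD, n = 3) in H4 and 9.59 ± 0.05 (SD, n = 2) in HCT116. S100A4 was 3.99-fold lower (limma, adjusted p = 0.0269), a call that ended when any of 4 clones was left out. Its adjusted p was then 0.0717 without 8-1, 0.0774 without 8-3, 0.107 without 24 and 0.119 without 27. CAV1, the gene for caveolin 1, differed by -0.86 and missed the test (limma, adjusted p = 0.133), with H4 levels of 11.21, 10.17 and 9.80.

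The extracellular matrix list had the most calls in 1 direction. Of 49 measured members 34 were called higher in H4 and none lower, with a median difference of 2.32, against 7.35% of all genes called higher. By role they were 8 of 13 collagens, 18 of 24 glycoproteins and proteoglycans, 2 of 5 crosslinking enzymes and 6 of 7 proteases or inhibitors. Apart from the list, IGFBP5 and EDIL3, whose products are secreted and bind matrix or integrins, were 107-fold and 177-fold higher in H4.

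COL6A3, which encodes a chain of microfibrillar collagen VI, had levels of 12.56, 12.40 and 12.36 in H4, against 5.34 and 5.07 in HCT116. It was 150-fold higher in H4, with an SE of 0.12 around a difference of 7.23 (limma, adjusted p = 1.81e-10). COL5A2, a fibrillar collagen gene, was 35.5-fold higher, at 10.55 ± 0.16 (SD, n = 3) in H4 and 5.40 ± 0.15 (SD, n = 2) in HCT116. COL1A1 had levels of 9.79, 8.42 and 9.58 in H4, against 7.57 and 7.69 in HCT116. The H4 clone 8-3 stood nearest to HCT116 in COL1A1, and the 3.10-fold difference (limma, adjusted p = 0.00397) was small beside those of COL6A3 and COL5A2. In the deficient arrays the COL1A1 difference was 0.19 (limma, adjusted p = 0.736).

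Among glycoproteins, FN1, the fibronectin gene, had levels of 12.32, 12.17 and 12.18 in H4, against 5.83 and 5.93 in HCT116, 81.5-fold higher in H4. TGFBI, which encodes an integrin-binding matrix protein, was 120-fold higher, at 12.34 ± 0.02 (SD, n = 3) in H4 and 5.43 ± 0.12 (SD, n = 2) in HCT116. LUM, the gene for the proteoglycan lumican, had levels of 9.42, 9.81 and 10.14 in H4, against 2.83 and 2.77 in HCT116. The HCT116 levels of LUM lie far under the lower quartile, so its 127-fold difference is between a clear signal and one near the floor of the array.

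SPARC, a collagen-binding protein gene, was 38.1-fold higher in H4, and THBS1, the thrombospondin 1 gene, 23.8-fold higher. LOX, which encodes the enzyme that crosslinks collagen, had levels of 8.64, 8.59 and 8.78 in H4, against 4.0 and 4.19 in HCT116, also 23.8-fold higher. MMP2, a gelatinase gene, was 54.3-fold higher, at 11.18 ± 0.25 (SD, n = 3) in H4 and 5.42 ± 0.03 (SD, n = 2) in HCT116. MMP1 was called at 1.14 (limma, adjusted p = 0.006) and fell below 2-fold without clone 88-1, at 0.99. VCAN, the versican gene, varied within both lines, at 4.91, 4.65 and 7.32 in H4 and 7.54 and 9.36 in HCT116, and missed the test (limma, adjusted p = 0.0955).

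Integrins, the receptors for this matrix, were called higher in H4 in 7 and lower in 2 of 17 measured genes, with a median difference of 0.82. The shares of all genes were 7.35% higher and 4.94% lower. ITGB8 had levels of 10.02, 10.42 and 11.46 in H4, against 5.36 and 5.09 in HCT116, 42.6-fold higher in H4. ITGA4, which binds fibronectin and VCAM1, was 24.7-fold higher, at 9.50 ± 0.16 (SD, n = 3) in H4 and 4.87 ± 0.36 (SD, n = 2) in HCT116. ITGA8 was 14.4-fold higher, and ITGAV and ITGB5, which pair in a vitronectin receptor, were 2.63-fold and 2.86-fold higher in H4. ITGB1, the common partner of many alpha chains, differed by 0.31 (95% interval 0.00 to 0.62) and missed the test.

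The integrin pair of the hemidesmosome, which anchors epithelia to laminin-332, ran the other way. ITGB4 had levels of 5.71, 5.58 and 5.44 in H4, against 8.39 and 8.71 in HCT116, 7.84-fold lower in H4 (limma, adjusted p = 3.58e-08). LAMB3, a laminin-332 chain gene, was 3.81-fold lower, at 5.60 ± 0.09 (SD, n = 3) in H4 and 7.53 ± 0.27 (SD, n = 2) in HCT116. ITGA6 was called at -1.11, and without the HCT116 clone 27 its difference was -0.90, below 2-fold. Of the 6 measured genes of this list 3 were called lower and none higher, with a median of -0.78. Of all genes, 4.94% were called lower.

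The labels call H4 a glioblastoma line, and neural and glial genes were examined for that reason. Of 36 measured members 2 were called higher in H4 and 2 lower, with a median difference of -0.05. These counts are close to the shares of all genes, 7.35% called higher and 4.94% called lower. GFAP, the intermediate filament gene of astrocytes, had levels of 6.34, 6.29 and 6.18 in H4, against 6.30 and 6.25 in HCT116, a difference of 0.00 (95% interval -0.22 to 0.21). S100B, another astrocyte marker, had levels of 4.31, 4.17 and 4.05 in H4, against 4.35 and 4.47 in HCT116. Every S100B value lay under 4.52, the lower quartile, and similar levels near the floor do not show that a gene was expressed. OLIG2 and PTPRZ1, which mark oligodendrocyte precursors and gliomas, differed by -0.04 and -0.11, SOX2 by 0.58 and NES by -0.54, and none of the 4 was called. The glial markers therefore did not set H4 apart from the colorectal line, and the line is called here by its name.

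GJA1, which encodes the gap junction protein connexin 43 of astrocytes and many mesenchymal cells, was the exception with a large difference. It had levels of 10.07, 9.88 and 10.33 in H4, against 5.96 and 5.83 in HCT116, 18.3-fold higher in H4 (limma, adjusted p = 2.05e-08). NRCAM, a neuronal adhesion gene, was called at 1.12, mostly through the H4 clone 88-1, and without that clone it differed by 0.76. Without the HCT116 clone 24 or 27 its adjusted p was 0.0545 or 0.0529 (limma). CSPG4 and ENO2, which were called lower in H4 at -1.21 and -1.09, stood at -0.99 and -0.91 without the HCT116 clone 24, and ENO2 at -0.97 without the H4 clone 8-3.

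The expression of HOX genes records position along the body axis. Of 39 listed, 27 were measured, and of the 11 HOXA genes only HOXA2 was (0.99, not called). Of the 27 measured genes 2 were called higher in H4 and none lower, with a median of 0.01. That share is close to the 7.35% of all genes called higher. HOXC10, a gene of the posterior body, had levels of 7.31, 7.37 and 7.35 in H4, against 5.15 and 5.13 in HCT116, 4.60-fold higher in H4 (limma, adjusted p = 6.1e-07). HOXB2 was 2.39-fold higher, at 7.81 ± 0.06 (SD, n = 3) in H4 and 6.55 ± 0.08 (SD, n = 2) in HCT116. HOXB8 and HOXD8 differed by -0.77 and -0.81, below 2-fold.

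Receptor tyrosine kinases and the ligands of the EGF receptor family changed in both directions. Of 35 measured genes 9 were called higher in H4 and 10 lower, against 7.35% and 4.94% of all genes. The median was -0.17. EREG, the gene for the ligand epiregulin, had levels of 5.33, 5.40 and 5.26 in H4, against 11.94 and 12.06 in HCT116, 102-fold lower in H4. EGF itself was 12.5-fold higher, at 8.47 ± 0.28 (SD, n = 3) in H4 and 4.82 ± 0.21 (SD, n = 2) in HCT116. EGFR, their receptor, was called at 1.03 and stood at 0.97 without the H4 clone 8-1 and at 0.99 without the HCT116 clone 24.

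Among 28 measured receptor genes 7 were called higher in H4 and 7 lower, with a median of -0.13. DDR2, a receptor for fibrillar collagen, had levels of 9.68, 9.78 and 10.06 in H4, against 5.27 and 5.34 in HCT116, 23.2-fold higher in H4 (limma, adjusted p = 2.04e-09). PDGFRA was 7.40-fold higher, at 7.94 ± 0.50 (SD, n = 3) in H4 and 5.05 ± 0.09 (SD, n = 2) in HCT116, and PDGFRB was 7.28-fold higher. IGF1R was 5.30-fold higher and EPHA5, an ephrin receptor gene of neural tissue, 9.86-fold higher. FGFR1, a fibroblast growth factor receptor gene, was not called (0.84, SE 0.16). MST1R, the receptor gene for macrophage stimulating protein in epithelia, was 3.71-fold lower in H4, at 5.20 ± 0.14 (SD, n = 3) against 7.09 ± 0.18 (SD, n = 2) in HCT116.

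In the TGF-beta and BMP pathway, 7 of 27 measured genes were called higher in H4 and 2 lower, with a median of 0.61. The shares of all genes were 7.35% and 4.94%. The ligand gene TGFB2 had levels of 9.32, 8.86 and 9.04 in H4, against 5.24 and 4.86 in HCT116, 16.3-fold higher in H4. TGFB1 was 3.25-fold higher, at 9.69 ± 0.19 (SD, n = 3) in H4 and 7.99 ± 0.09 (SD, n = 2) in HCT116. The ligand gene BMP4 ran the other way, at 4.71, 4.70 and 4.59 in H4, against 8.37 and 7.93 in HCT116, 11.2-fold lower in H4. Of the receptors BMPR2 was 3.54-fold higher, and of the targets ID2 was 3.07-fold lower and SMAD7 2.12-fold higher in H4.

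HCT116 is known to carry an activating beta-catenin mutation, and Wnt pathway and target genes form a list of their own. Of 19 measured genes 1 was called higher in H4 and 4 lower, against 7.35% and 4.94% of all genes. The median was -0.29. RNF43, which encodes a ligase that removes Wnt receptors, had levels of 5.86, 5.94 and 6.22 in H4, against 9.52 and 9.72 in HCT116, 12.2-fold lower in H4. MYC was 8.95-fold lower, at 7.39 ± 0.17 (SD, n = 3) in H4 and 10.55 ± 0.07 (SD, n = 2) in HCT116. AXIN2, a common readout of the pathway, was below 2-fold at -0.58 (SE 0.10, limma adjusted p = 0.001).

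LEF1, a DNA-binding partner of beta-catenin and itself a target, went against the other calls of that list. It had levels of 8.80, 8.78 and 9.14 in H4, against 4.55 and 4.39 in HCT116, 21.7-fold higher in H4 (limma, adjusted p = 3.32e-07). DKK1, a secreted inhibitor gene, varied among the H4 clones at 9.58, 8.73 and 7.54, against 10.75 and 10.06 in HCT116, and missed the test (limma, adjusted p = 0.0645). CCND1, called at -1.03, stood at -0.95 without the H4 clone 8-3 and at -0.98 after quantile normalization.

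Genes of MHC class I antigen presentation were higher in H4 in 7 of 11 measured members and lower in none, with a median of 1.39. Of all genes, 7.35% were called higher. PSMB8, an immunoproteasome subunit gene, had levels of 9.53, 9.31 and 9.50 in H4, against 4.99 and 4.96 in HCT116, 22.2-fold higher in H4 (limma, adjusted p = 1.76e-09). PSMB9, another such subunit gene, was 7.40-fold higher, at 10.29 ± 0.14 (SD, n = 3) in H4 and 7.40 ± 0.02 (SD, n = 2) in HCT116. The peptide-trimming enzyme genes ERAP1 and ERAP2 were 5.17-fold and 4.10-fold higher. B2M, the light chain gene, was 2.61-fold higher, and TAP1, a peptide transporter gene that lies beside PSMB9, was below 2-fold at 0.68.

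Of 24 measured cytokine and chemokine genes 5 were called higher in H4 and 3 lower, against 7.35% and 4.94% of all genes. Their median was -0.01. CCL2, a monocyte chemoattractant gene, had levels of 7.89, 7.87 and 8.72 in H4, against 4.98 and 5.34 in HCT116, 8.00-fold higher in H4. CSF1, a macrophage growth factor gene, was 6.13-fold higher, at 9.95 ± 0.09 (SD, n = 3) in H4 and 7.33 ± 0.11 (SD, n = 2) in HCT116. IL18, an inflammasome cytokine gene of epithelia, had levels of 5.03, 5.0 and 4.60 in H4, against 8.57 and 8.86 in HCT116, 14.3-fold lower in H4. CXCL16 was 7.42-fold lower in H4.

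Genes of detoxification and transport were called higher in H4 in 9 of 25 members and lower in 3, with a median of 0.27. The shares of all genes were 7.35% and 4.94%. AKR1B10, an aldo-keto reductase gene, had levels of 9.89, 10.33 and 9.69 in H4, against 4.07 and 4.28 in HCT116, 55.5-fold higher in H4. CYP1B1, a cytochrome P450 gene, was 25.5-fold higher, at 10.38 ± 0.19 (SD, n = 3) in H4 and 5.71 ± 0.02 (SD, n = 2) in HCT116, and GSTM3, a glutathione transferase gene, was 19.1-fold higher. The drug efflux pump genes ABCB1, ABCC3 and ABCG2 were 4.26-fold, 5.35-fold and 4.08-fold higher in H4. ABCC2, a pump gene of apical membranes, was 13.5-fold lower in H4, at 6.56 ± 0.32 (SD, n = 3) against 10.31 ± 0.05 (SD, n = 2) in HCT116. Its SE of 0.76 reflects the H4 deficient arrays in the pooled spread, which had an SD of 1.84 (n = 3). In the deficient arrays ABCC2 was at 9.14, 11.54 and 7.92 in H4, against 10.82 and 10.69 in HCT116. The ABCC2 difference there, -1.22, missed the test (limma, adjusted p = 0.254).

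Cell cycle genes differed little in size. Of 23 measured replication and mitosis genes none was called higher and 5 were called lower in H4, against 4.94% of all genes called lower. The list's median was -0.56, and all 5 called genes were within 2.28-fold. AURKB, a mitotic kinase gene, had the largest of these differences, at 8.39 ± 0.23 (SD, n = 3) in H4 and 9.58 ± 0.09 (SD, n = 2) in HCT116. MCM5, RRM2 and CDC6, called at -1.09, -1.11 and -1.05, stood at -0.94, -0.95 and -0.91 without the H4 clone 8-3, which had the lowest value of all 5 arrays in each. CDC6 stood at -0.97 without the HCT116 clone 27. Without the HCT116 clone 24, CDT1, called at -1.12, stood at -0.95, and MCM5 had an adjusted p of 0.0584 (limma). Of 20 measured p53 target genes 1 was called, the kinase gene PLK3, 2.90-fold lower in H4, close to the 4.94% of all genes called lower. CDKN1A differed by 0.01, and the list's median was 0.01. Of 6 measured mismatch repair genes, MSH3 was called at 1.05 and stood at 0.99 without the H4 clone 88-1, as it did without the HCT116 clone 27.

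Most genes of the cancer-testis list, though not all, are ones that normal adult tissue keeps silent outside the germline. Of 15 measured members 2 were called higher in H4 and 2 lower, against 7.35% and 4.94% of all genes. The median was 0.00. MAGEB2 had levels of 3.76, 3.66 and 3.44 in H4, against 10.56 and 10.56 in HCT116, 123-fold lower in H4. PRAME was 6.17-fold lower, at 6.44 ± 0.12 (SD, n = 3) in H4 and 9.06 ± 0.29 (SD, n = 2) in HCT116. MAGEC1 was 6.59-fold higher in H4. MAGED1 was 4.03-fold higher in H4 but high in both lines, at means of 11.27 in H4 and 9.26 in HCT116. MAGEC2 had levels of 9.35 and 9.10 in the H4 clones 8-1 and 8-3, which share a starting clone, and 4.37 in 88-1, against 4.06 and 4.01 in HCT116. With that spread inside H4 its difference of 3.57 missed the test (limma, adjusted p = 0.0977).

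The 15 largest positive differences were at least 63.3-fold and the 15 largest negative ones at least 33.9-fold. SLC14A1, a urea transporter gene, led the positive side, with levels of 11.93, 11.93 and 11.87 in H4, against 4.57 and 4.25 in HCT116, 181-fold higher in H4 (limma, adjusted p = 1.41e-09). KYNU, which encodes the tryptophan-degrading enzyme kynureninase, was 135-fold higher. AKR1C1, an aldo-keto reductase gene with near-identical copies that could share signal, was 96.0-fold higher in H4, C1S, a complement protease gene, 78.6-fold and IL13RA2, a decoy receptor gene for interleukin 13, 78.4-fold. PCDH18, DIO2 and F2RL2, which encode a protocadherin, a thyroid hormone deiodinase and a thrombin receptor subunit, were 78.1-fold, 71.6-fold and 63.3-fold higher.

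On the negative side, CYP24A1, which encodes the enzyme that inactivates vitamin D, had levels of 4.56, 4.19 and 4.04 in H4, against 10.53 and 11.38 in HCT116, 103-fold lower in H4. GTSF1, a gene that in mouse is needed for silencing of transposons in the germline, was 88.0-fold lower and had the smallest SE of the 30, 0.09. ANXA3, an annexin gene, was 68.0-fold lower, the long non-coding RNA gene UCA1 57.7-fold, GALNT5, which starts O-linked sugar chains, 50.9-fold and ADGRF1, an adhesion receptor gene, 33.9-fold. H2BC14, a histone gene of a family with near-identical copies, was 47.3-fold lower. In 7 of the 15 positive genes the HCT116 mean, and in 10 of the 15 negative genes the H4 mean, lay under 4.52, the lower quartile named above.

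Some large differences concerned a gene and its neighbours on the chromosome. MTAP, which encodes an enzyme of methionine salvage beside CDKN2A on chromosome 9, had levels of 4.64, 4.45 and 4.61 in H4, against 9.94 and 9.58 in HCT116, 36.7-fold lower in H4. CDKN2A was 3.64-fold lower, at 5.54 ± 0.20 (SD, n = 3) in H4 and 7.40 ± 0.32 (SD, n = 2) in HCT116, and KLHL9 was 10.5-fold lower. CDKN2B differed by -0.66, below 2-fold, and the interferon genes between KLHL9 and MTAP lay under the lower quartile in both lines. Of the 6 genes of the 9p21 list 3 were called lower and none higher, against 4.94% of all genes called lower. These arrays hold no DNA copy number, so whether a gene is lost or silent was not tested.

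ATAD1, which encodes an ATPase that clears misplaced proteins from mitochondria, had levels of 4.04, 4.12 and 3.68 in H4, against 10.04 and 9.91 in HCT116, 65.5-fold lower in H4. PAPSS2, the measured gene before it on chromosome 10, which makes the sulphate donor for sulphation, was 5.85-fold lower, at 4.89 ± 0.09 (SD, n = 3) in H4 and 7.43 ± 0.46 (SD, n = 2) in HCT116. MINPP1, the next gene on that side, differed by 0.54, and RNLS, on the other side, by 0.03. The low stretch in H4 thus spanned 2 measured genes. PAPSS2 and these neighbours were chosen after their values were seen.

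ZNF841, a zinc finger gene on chromosome 19, had levels of 9.94, 10.16 and 9.84 in H4, against 3.63 and 4.10 in HCT116, 69.2-fold higher in H4. It lay in a run of 8 neighbouring zinc finger genes, ZNF613 to ZNF836, that were each called higher in H4, by 1.16 to 6.11. The genes next to the run, ZNF649 and PPP2R1A, each differed by 0.46.

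**Figure D4:**
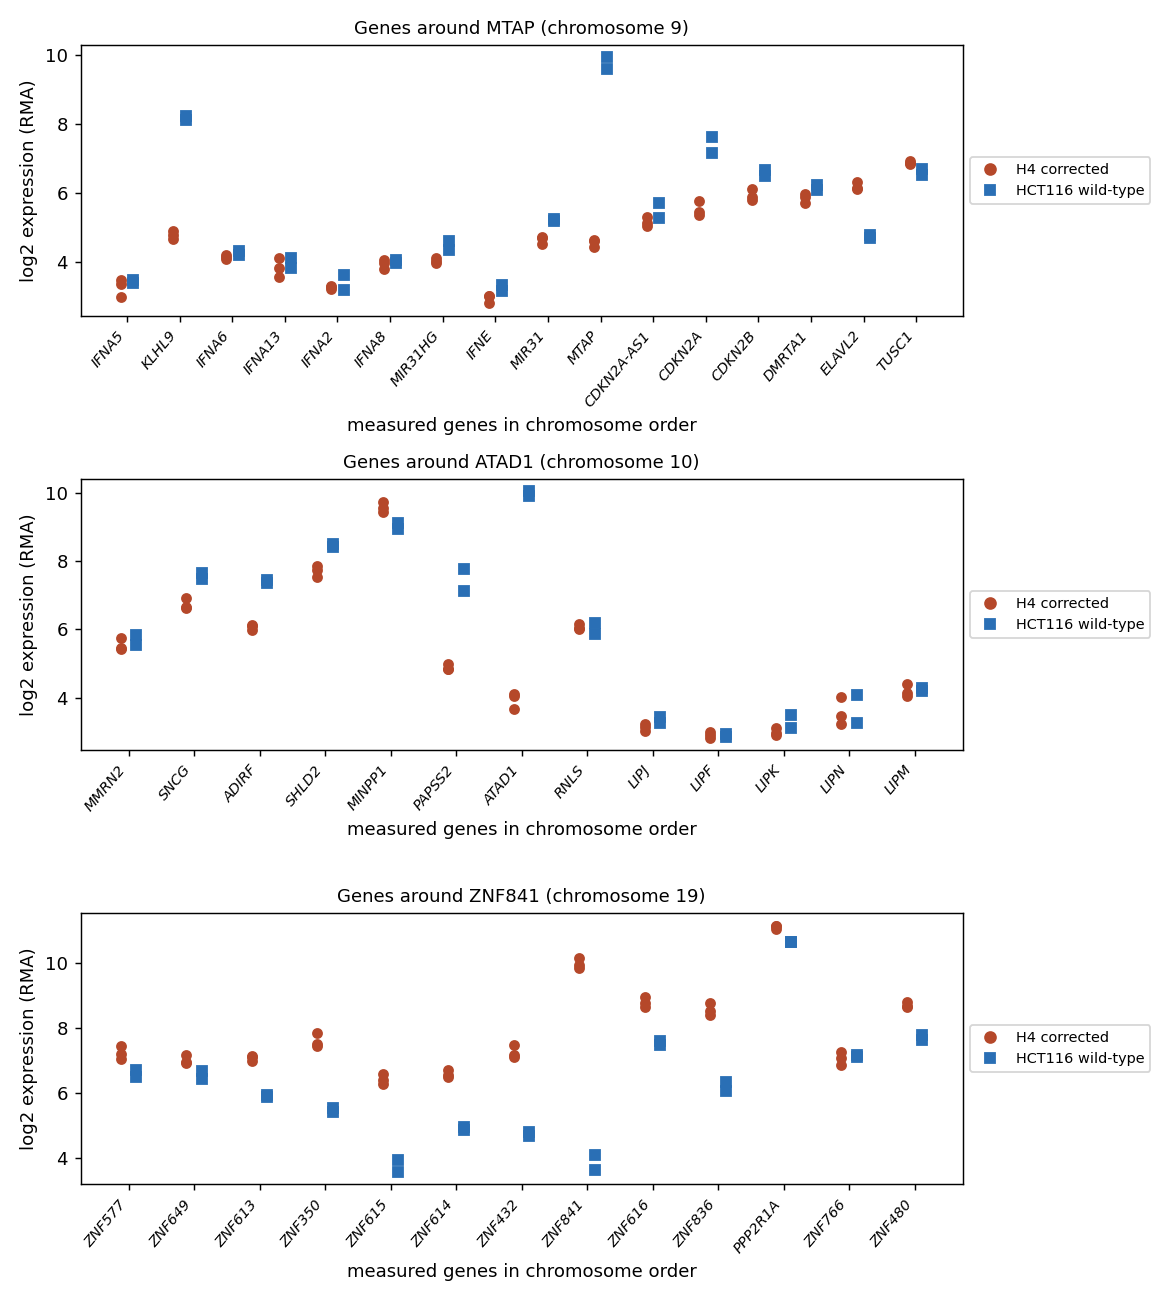
Log2 expression (vertical axis) of measured genes in chromosome order around MTAP, ATAD1 and ZNF841, with 1 circle per H4 corrected clone (3) and 1 square per HCT116 wild-type clone (2). MTAP and KLHL9 are low in H4 with near-floor genes between them, ATAD1 and PAPSS2 are low side by side, and around ZNF841 a row of 8 genes is higher in H4.

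The same line difference was measured between other arrays, 3 H4 deficient against 2 HCT116 knockout. These entered none of the means and differences above, but they share the fit, and so the spread behind every SE, p-value and call, and the choice of a gene's row. There 2040 genes (11.1%) were called, 1177 higher (6.39%) and 863 lower (4.69%) in H4. Of the 1353 genes called higher in proficient H4 cells, 984 (72.7%) were called higher in the deficient ones as well, which is 83.6% of the deficient higher calls. Of the 910 called lower, 624 (68.6%) were called lower again, 72.3% of the deficient lower calls. All 30 of the largest differences were called in the same direction, the smallest of them at 3.42 in size. The arrays of both states share the line and its clones' origin, so this repeats the measurement and not the tumour.

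The gene lists differed in how far they repeated. The matrix list had 34 of 49 members called higher in H4 with STAG2 and 28 without it, and its median difference was 2.32 with STAG2 and 1.31 without it. FBLN1, the fibulin 1 gene, was the 1 matrix gene called lower in H4 in the deficient arrays, at -1.37, and was not called with STAG2, at -0.72. The TGF-beta and BMP list had 7 genes called higher with STAG2 and 3 without it. The junction list had 16 genes called lower with STAG2 and 17 without it, and the keratin and regulator list 17 and 19. Of the EMT transcription factors 6 were called higher with STAG2 and 6 without it. These differences between counts were not tested.

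The 4 markers kept the direction of their line difference without STAG2, each of them called there as well. EPCAM was at 4.36, 4.05 and 4.26 in H4 deficient arrays, against 11.34 and 11.25 in HCT116 knockout arrays. CDH1 was at 4.45, 4.17 and 4.27 in H4 deficient arrays, against 8.75 and 9.12 in HCT116 knockout arrays. The line difference of CDH1 was -4.01 with STAG2 and -4.64 without it, and the HCT116 knockout clones lay above both HCT116 wild-type clones. The difference between these values, 0.63 (95% interval 0.15 to 1.10), did not pass the test over all genes (limma, adjusted p = 0.347). VIM stood at 11.10, 11.06 and 10.92 in H4 deficient arrays, against 5.51 and 5.77 in HCT116 knockout arrays. CDH2 stood at 10.14, 9.66 and 10.15 in H4 deficient arrays, against 5.04 and 5.25 in HCT116 knockout arrays.

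Across the 18417 genes the proficient and the deficient line differences correlated at a Pearson r of 0.927, given as a description across genes of the same 2 lines. Of the 2263 called genes 12 had the opposite sign in the deficient arrays, and 1 of them was called there. This was DAPK1, a kinase gene of cell death, with levels of 8.50, 8.34 and 8.45 in H4 corrected clones, against 6.36 and 6.31 in HCT116 wild-type clones. In the deficient arrays DAPK1 was at 7.02, 5.64 and 5.29 in H4 and 7.17 and 7.50 in HCT116. The difference between its line differences, 3.45, missed the test (limma, adjusted p = 0.0797). Tested gene by gene, the proficient and deficient line differences differed in 11 genes (0.0597% of all, limma, adjusted p under the same threshold), and 2001 had an unadjusted p below it.

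**Figure D5:**
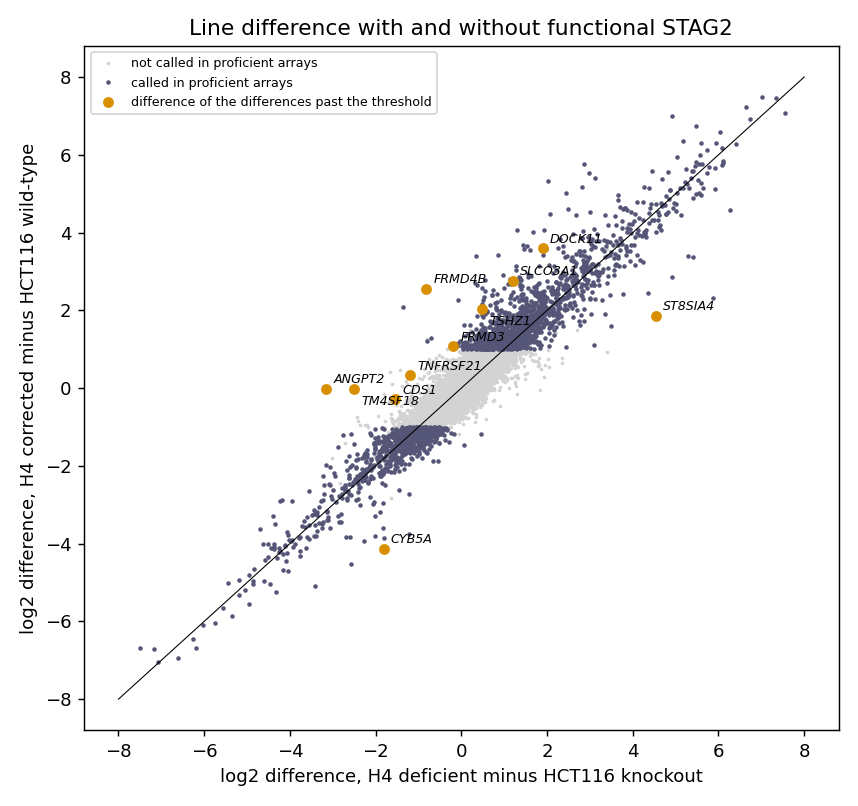
Log2 difference H4 corrected minus HCT116 wild-type (vertical axis) against H4 deficient minus HCT116 knockout (horizontal axis) for 18417 genes, with called genes dark and the line of equal differences in black. Most called genes lie along the line, and the 11 genes in orange, whose 2 differences differed, lie off it. Over all 18417 genes, called or not, r was 0.927.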

How the data were processed

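Total RNA of 16 cultures was hybridised to 1 array each, per the labels. The deposited values are on the log2 scale in 33297 rows, and the authors made them with RMA in Affymetrix Expression Console, per the submitters' processing notes; versions, settings and the genome build were not given in the sources used here. RMA corrects background, puts arrays on a common distribution, and summarises probes, so small differences of low genes are compressed. The values were used as deposited.

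The platform annotation gave 1 gene symbol for 19460 rows, several for 1754 and none for 12083. Symbols of 19429 rows were updated through Entrez identifiers to RefSeq (GRCh38.p14). Rows with 1 gene stood for 18417 genes, each represented by its row of highest mean in the 10 H4 and HCT116 arrays. Of these, 769 had several rows, none called in opposite directions, and 118 genes had a row whose values repeat another row's. No filter on low values was applied.

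A linear model of 10 arrays in 4 groups, which share 1 spread per gene, was used for the differences (R 4.3.3, limma 3.58.1, functions lmFit, contrasts.fit and eBayes). P-values were two-sided and adjusted over all 18417 genes. The scripts were tested on simulated data.

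The arrays compared, the 23 gene lists, written from textbook knowledge, and 1 further list of miRNA genes were chosen with earlier results of these data known. Of the listed genes, 60 had no row of their own and were not analysed here. Named were STAG2, STAG1, the markers, the 15 largest differences each way, the first member of each role and up to 8 members with the largest difference of each list, and the 6 smallest interaction p-values. Other genes were chosen after their values were seen. Lists were described by counts and medians and not tested as sets. RefSeq promoter windows and miRNAs were matched by symbol. Where a gene had several windows, the one with the most E-boxes is printed, and among equals the most upstream one.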

Additional observations from a re-analysis of the deposited data

Results flagged for a closer look

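For 11 genes the line difference in proficient arrays (H4 corrected minus HCT116 wild-type) and the one in deficient arrays (H4 deficient minus HCT116 knockout) differed by the test of that difference itself (limma, adjusted over 18417 genes). Either line can carry such a difference, so the levels of all 4 groups are given for the 6 genes with the smallest p.

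ANGPT2, which encodes a ligand of the endothelial TIE2 receptor, differed by 3.14 between the states (limma, adjusted p = 0.000307). Its line difference was -0.02 with STAG2, at means of 4.79 in H4 and 4.81 in HCT116. Without STAG2 it was -3.16, at 4.71 in H4 and 7.87 in HCT116, so the HCT116 knockout clones stood apart. TM4SF18, a tetraspan membrane protein gene, followed the same order, with a difference of 2.48, and its line difference was -0.03 with STAG2 and -2.51 without it. Its means were 4.59 in H4 corrected and 4.62 in HCT116 wild-type clones, against 4.22 in H4 deficient and 6.73 in HCT116 knockout arrays.

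FRMD4B, a gene for a FERM-domain scaffold protein, differed by 3.38 (limma, adjusted p = 0.00392). Its levels were 8.07, 8.53 and 8.09 in H4 corrected clones and 5.90, 5.28 and 5.52 in H4 deficient arrays. In HCT116 they were 6.12 and 6.66 in the knockouts and 5.74 and 5.60 in the wild-type clones. Here the corrected H4 clones stood apart. ST8SIA4, which encodes a polysialic acid synthase, differed by -2.68, with means of 6.75 in H4 corrected and 4.89 in HCT116 wild-type clones, against 9.80 in H4 deficient and 5.26 in HCT116 knockout arrays. FRMD3 differed by 1.26, with means of 6.14 in H4 corrected and 5.07 in HCT116 wild-type clones, against 5.06 in H4 deficient and 5.25 in HCT116 knockout arrays. TNFRSF21, a death receptor gene, differed by 1.54, with means of 9.38 in H4 corrected and 9.04 in HCT116 wild-type clones, against 7.72 in H4 deficient and 8.92 in HCT116 knockout arrays. FRMD3 was called in the proficient comparison at 1.07 and stood at 0.98 without the HCT116 clone 27.

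The other 5 differed by 1.26 (CDS1), 1.70 (DOCK11), 1.56 (SLCO3A1), -2.32 (CYB5A) and 1.56 (TSHZ1), each at an adjusted p of at most 0.0297 (limma). In DOCK11, SLCO3A1 and TSHZ1 the line difference had the same sign in both states and was larger with STAG2, at 3.60, 2.76 and 2.04. CYB5A was lower in H4 in both states, with differences of -4.14 with STAG2 and -1.81 without it. What the difference between the states follows from was not tested, and the clones of each state also differ from each other in ways that the labels do not give.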

How the results depend on the processing

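The count of 2263 called genes was 972 (653 higher, 319 lower in H4) when the 2-fold limit was made part of limma's test (treat), and 2049 to 2387 under the other settings tried: all 16 arrays in 1 fit, the 5 arrays alone, a filter on low genes, quantile normalization, median centring, the mean of a gene's rows, every row, and the clones 8-1 and 8-3 averaged. Leaving out 1 clone at a time gave 2157 to 2380. Of 254 named genes 143 were called, and 135 to 147 under settings other than treat, 103 with treat. Of these, 19 lost the call in a setting other than treat, and none reversed. The share of calls higher in H4 was 59.8%, 57.1% to 60.4% in the other settings and 67.2% with treat. The deficient comparison gave 1888 to 2067 calls against 2040. The 11 genes whose line differences differed became 46 with all 16 arrays in the fit and 10 to 11 otherwise; the cause was not tested. No paired analysis was possible because the labels give the clones of H4 and HCT116 names that share no replicate number. Detection over background was not used here, so genes near the floor of the array were kept, and their differences are the least certain.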

Other observations

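Among measured genes in chromosome order, 22 runs of at least 4 adjacent genes were called in the same direction, 18 of them higher and 4 lower in H4, with 116 of the 2263 called genes in all. Over all genes 7.35% were called higher and 4.94% lower. These runs and the families below were chosen after their values were seen and carry no test. The longest run held 15 genes of the protocadherin beta cluster on chromosome 5, from PCDHB2 to PCDHB14, with differences of 1.05 to 4.95. In the deficient arrays all 15 had the same direction and 14 were called. Of all 18 measured PCDHB genes 16 were called higher in H4, and of 12 measured PCDHA genes, which encode the neighbouring alpha protocadherins of neurons, 9 were. Members of these families are similar in sequence and may share probe signal.

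Zinc finger genes of chromosome 19, most of which encode KRAB-type repressors, were called higher in H4 in 77 of 249 (30.9%) and lower in 4, with a median difference of 0.44. Zinc finger genes of other chromosomes were called higher in 22 of 285 (7.72%), and other genes of chromosome 19 in 28 of 1059 (2.64%). In the deficient arrays 69 of the 249 were called higher. The runs on that chromosome from ZNF542P to ZNF71, with 9 genes, and from ZNF506 to ZNF486, with 6, had median differences of 2.10 and 2.22.

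The small nucleolar RNA genes of the SNORD116 cluster on chromosome 15, which are near-identical copies, were called higher in H4 in 11 of 20. A run from HBE1, the embryonic globin gene, through OR51B4 and OR51B2 to OR51B5 on chromosome 11 was lower in H4, with a median of -3.83, and -1.95 in the deficient arrays.

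NNT, which encodes the mitochondrial transhydrogenase, was at 10.68, 10.68 and 10.88 in H4, against 4.78 and 5.24 in HCT116, 53.2-fold higher in H4 (limma, adjusted p = 1.58e-09). VRK2, a kinase gene, was at 3.92, 3.80 and 4.08 in H4, against 8.67 and 9.11 in HCT116, 31.0-fold lower in H4. Both were in no list and were chosen after their values were seen.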
